A study of Danio rerio with 9 samples.

Results

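The genes described here are 10 zebrafish genes of neuronal differentiation and of the neurofilament cytoskeleton, taken by symbol from the deposited gene tables out of 32312 genes in all. They code for 5 transcription factors (ebf3, isl1, isl2a, isl2b and phox2a), 2 RNA-binding proteins of neurons (elavl3 and elavl4), a growth cone protein (gap43) and 2 intermediate filament proteins (nefm and prph). Each symbol matched 1 gene, and all 10 passed the filter on low counts that left 19835 genes for testing.

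Poly(A) RNA of whole TU strain embryos taken at 24 h post fertilisation gave 9 sequencing libraries. In 8 of them the embryos had received 100 mg/L of a methanolic extract of coal dust, dissolved in DMSO, at 4 h post fertilisation, and were then sorted by malformation. P1 embryos had deformed tails (n = 3), P2 embryos had deformed yolks (n = 2) and P3 embryos were small with extruded yolks (n = 3), and the control is 1 pooled library of embryos of normal phenotype (n = 1). Whether the control received DMSO is not stated in the labels. RNA came from 50 embryos per phenotype group. The labels do not say that the libraries of a group came from separate pools of embryos, so every p-value is set by the spread between libraries that may be technical repeats. The unnumbered library of each phenotype is called replicate 0 below.

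Library totals reached 20810487 counts in P3 replicate 2 and were lowest, 12008832, in the control. Within a phenotype, log2 CPM (counts scaled to a fixed library total) over all tested genes correlated between libraries with r of 0.9894 to 0.9937, the lowest being between P3 replicates 0 and 1. With a single control, the error of every comparison with it rests on the spread among the exposed libraries, which the control is assumed to share, and the 3 comparisons with the control share that library.

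Neurons leave the cell cycle under proneural transcription factors, and later factors such as those of the Ebf, islet and Phox2 families then direct their maturation and subtype. Young neurons switch on the ELAV proteins, which bind and stabilise or splice neuronal messages. Growing axons carry growth cone proteins at their tip, and neurofilaments fill and widen the axon behind it. In the day-old zebrafish embryo the first sensory, motor and hindbrain neurons have already sent out axons.

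In P1 embryos, 4 of the 10 genes fell (nefm, prph, ebf3 and elavl4) and 0 rose, while 9.19% of all tested genes were called lower and 7.08% higher. P2 embryos had 6 genes lower, the same 4 with elavl3 and isl1, and 0 higher, beside 15.6% of all tested genes lower and 14.2% higher. In P3 embryos nefm, prph, ebf3 and elavl4 fell and 0 genes rose, beside 12.2% lower and 10.4% higher over all tested genes. A call is an edgeR quasi-likelihood p below 0.05 after Benjamini-Hochberg adjustment over all tested genes. The 10 genes and the gene lists below were chosen with earlier results of these data known. Their shares beside those of all tested genes are therefore descriptions and not tests. The median log2 fold change of the 10 genes was -0.19 in P1, -0.38 in P2 and -0.18 in P3, where the medians of all tested genes were -0.001, 0.004 and 0.014. These shares of all tested genes depend on the tool, since DESeq2 called 1917, 3820 and 2736 genes in P1, P2 and P3 where edgeR called 3227, 5916 and 4482. In bulk RNA of whole embryos, fewer neurons and less of a transcript per neuron cannot be told apart.

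**Figure D1:**
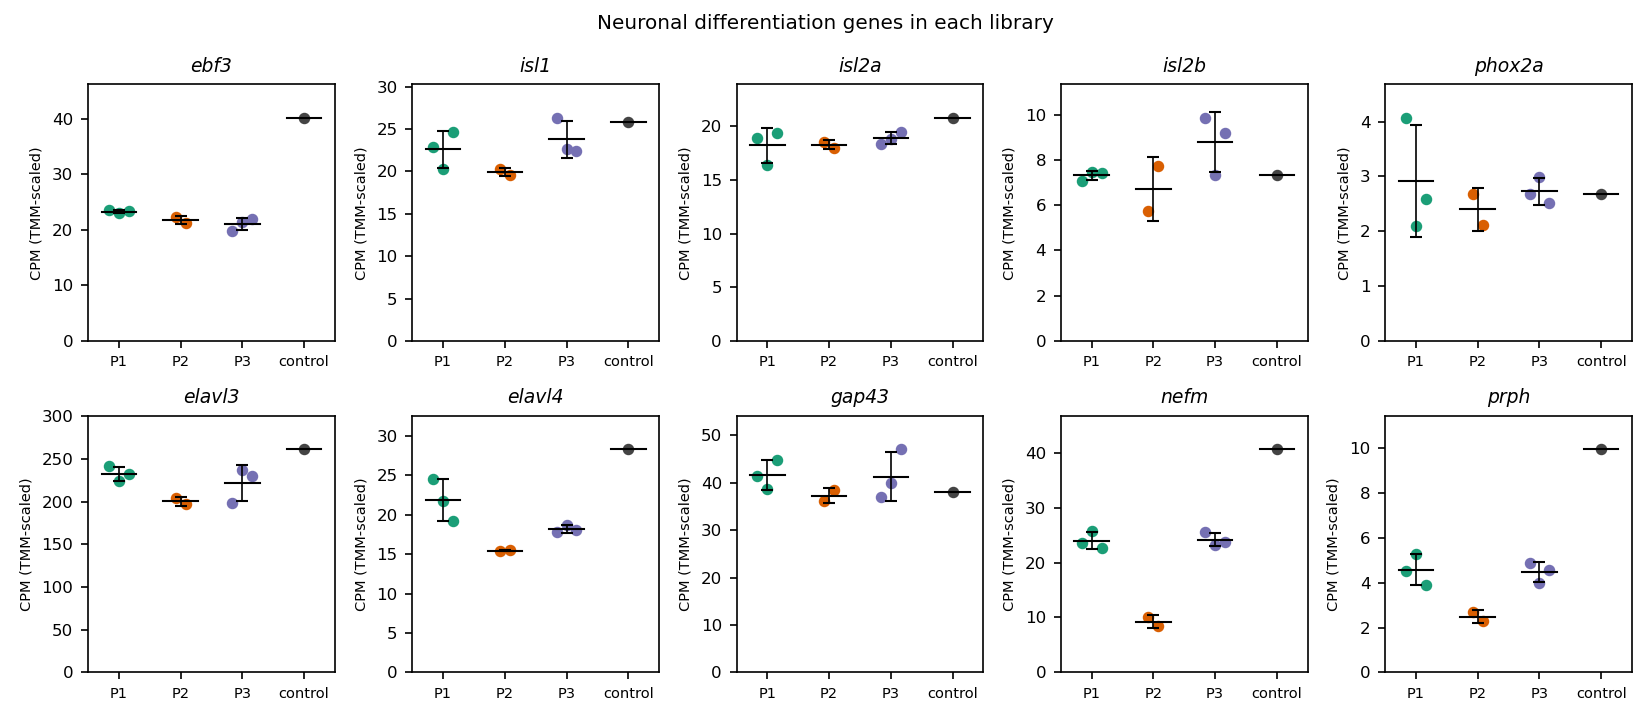
Level of each gene in each library, in CPM scaled by TMM on an axis from 0, with P1, P2 and P3 left of the control. Points are libraries, horizontal lines are means and bars are 1 SD. For nefm and prph, the P2 libraries lie below all others and the control above all others, while gap43 and phox2a of the control lie within the range of the exposed libraries.

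Of the filament genes, nefm codes for the medium neurofilament subunit. It lies on the plus strand of chromosome 8 at 7433111 to 7436536 of the Zv9 build (ENSDARG00000043697), and current zebrafish nomenclature lists it as nefmb. Its level was 23.6, 25.7 and 22.7 CPM in P1, 10.05 and 8.36 CPM in P2 and 25.5, 23.3 and 23.6 CPM in P3, against 40.6 CPM in the control. Every exposed library was below the control, and both P2 libraries were below every P1 and P3 library. The mean level was 59.1% of the control in P1, 22.7% in P2 and 59.5% in P3. These are log2 fold changes of -0.76 ± 0.11 in P1, -2.14 ± 0.12 in P2 and -0.75 ± 0.11 in P3 (± SE), with edgeR adjusted p = 0.000125, 1.26e-09 and 6.23e-05. Counts behind these levels were 154 to 165 in P2 and 343 to 486 in the other libraries, so counting error is small beside the changes.

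The second filament gene, prph, codes for peripherin, an intermediate filament protein of peripheral and motor neurons. It had 4.53, 5.28 and 3.91 CPM in P1, 2.68 and 2.28 CPM in P2 and 4.86, 4.01 and 4.57 CPM in P3, against 9.94 CPM in the control. The order of the groups matched that of nefm, with P2 lowest, the control highest, and P1 and P3 overlapping each other. Log2 fold changes against the control were -1.12 ± 0.19 in P1, -2.00 ± 0.22 in P2 and -1.15 ± 0.19 in P3 (edgeR adjusted p = 0.000792, 3.4e-06 and 0.000328). The gene lies on the minus strand of chromosome 11 (3301708 to 3314835).

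Among the transcription factors, ebf3, a helix-loop-helix factor that acts downstream of the proneural genes, was the only one of the 5 called in all 3 phenotypes. Its level was 23.5, 23.0 and 23.3 CPM in P1, 22.2 and 21.3 CPM in P2 and 19.8, 21.5 and 21.9 CPM in P3, against 40.2 CPM in the control. The exposed libraries spanned a narrow range far below the control, with P2 and P3 overlapping. Its log2 fold changes were -0.79 ± 0.10 in P1, -0.88 ± 0.10 in P2 and -0.93 ± 0.10 in P3 (edgeR adjusted p = 2.51e-05, 5.08e-06 and 1.76e-06). Unlike for nefm, no difference among the phenotypes was called for ebf3 (edgeR joint F test, adjusted p = 0.27).

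The islet genes code for LIM homeodomain factors of motor and sensory neurons, and isl1 is also active in the pancreas and heart. Levels of isl1 were 22.9, 20.3 and 24.6 CPM in P1, 20.3 and 19.6 CPM in P2 and 26.3, 22.6 and 22.4 CPM in P3, against 25.8 CPM in the control. The P2 libraries were at the low end, 1 P3 library was above the control, and P1 and P3 overlapped. It fell in P2 by 0.37 ± 0.13 on the log2 scale (edgeR adjusted p = 0.0434), a call lost with DESeq2 (adjusted p = 0.114), with scaling by library totals (0.054) and without either P2 library (0.0866 without replicate 0, 0.13 without replicate 1). Its log2 fold changes in P1 and P3 were -0.19 and -0.12, with no call (edgeR adjusted p = 0.336 and 0.532).

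Summed markers of endocrine pancreas, 6 genes, were 35.8 to 38.4 CPM in P1, 35.4 and 39.0 CPM in P2 and 38.2 to 40.1 CPM in P3, against 37.9 CPM in the control. Of these, 1 was called lower in P2, beside 15.6% of all tested genes, and none was called in P1 or P3. Heart markers summed to 207.5 to 215.5 CPM in P1, 224.7 and 229 CPM in P2 and 233 to 252.2 CPM in P3. The control was at 187.1 CPM. Called higher were 0, 2 and 4 of 8 and lower 0, beside 7.08%, 14.2% and 10.4% of all tested genes higher.

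The paralogs isl2a and isl2b were called in none of the comparisons. Levels of isl2a were 16.4 to 19.4 CPM in P1, 18.0 and 18.6 CPM in P2 and 18.4 to 19.5 CPM in P3, against 20.8 CPM in the control. All exposed libraries were below the control, but log2 fold changes of -0.19, -0.18 and -0.13 came with 95% intervals that reach from -0.44 to 0.06 in P1, -0.45 to 0.08 in P2 and -0.38 to 0.11 in P3. For isl2b, levels were 7.09 to 7.45 CPM in P1, 5.73 and 7.71 CPM in P2 and 7.31 to 9.85 CPM in P3, against 7.35 CPM in the control. The control lay inside the range of the exposed libraries. Its log2 fold changes were -0.01, -0.12 and 0.26 (95% intervals -0.45 to 0.43, -0.59 to 0.34 and -0.17 to 0.69).

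A homeodomain factor of noradrenergic and cranial motor neurons, phox2a had the fewest counts of the 10 genes, 31 to 70 per library. It had 4.07, 2.1 and 2.58 CPM in P1, 2.68 and 2.12 CPM in P2 and 2.68, 2.99 and 2.51 CPM in P3, against 2.67 CPM in the control. All groups overlapped, and P1 replicate 0 was the highest library. Its 95% interval in P2 ran from -0.95 to 0.62 on the log2 scale, so changes of the size seen for isl1 were not detectable at this depth.

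Of the ELAV genes, elavl4 was called lower in all 3 phenotypes and elavl3 in P2. Levels of elavl3, which codes for the pan-neuronal protein HuC, were 241, 225 and 232 CPM in P1, 204 and 197 CPM in P2 and 198, 237 and 230 CPM in P3, against 261 CPM in the control. All exposed libraries were below the control, and the P3 libraries spanned from the level of P2 to that of P1. Log2 fold changes were -0.17 ± 0.09 in P1 and -0.24 ± 0.09 in P3, neither called (edgeR adjusted p = 0.22 and 0.0641), and -0.38 ± 0.09 in P2 (0.00521). In P3 the call was gained with no filter on low counts (0.0316) and without P3 replicate 1 (0.0212).

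Its relative elavl4, which codes for HuD, had 24.5, 21.8 and 19.2 CPM in P1, 15.5 CPM in both P2 libraries and 17.8, 18.8 and 18.0 CPM in P3, against 28.3 CPM in the control. The 3 phenotypes did not overlap, with P1 nearest to the control and P2 farthest from it. Log2 fold changes were -0.37 ± 0.12 in P1, -0.87 ± 0.13 in P2 and -0.64 ± 0.12 in P3 (edgeR adjusted p = 0.0444, 8.27e-05 and 0.000997). The call in P1 was lost with DESeq2 (adjusted p = 0.127), with scaling by library totals (0.0538), without P1 replicate 1 (0.073) and without P1 replicate 2 (0.12). It was also lost with a replicate block (edgeR adjusted p = 0.055). Fewer of the genes described here were called in P1 without either P2 library and without P3 replicate 2. Of those called in P1 with all libraries, elavl4 was nearest to the threshold. The broadly expressed family member elavl1 was not called against the control, at log2 fold changes of 0.10, 0.20 and -0.05 (edgeR adjusted p = 0.384, 0.0515 and 0.688). Between phenotypes it was called for P3 over P2, at -0.25 ± 0.06 (0.00366), and in the joint F test (0.007).

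The growth cone gene gap43 did not pass in any comparison. Its levels were 41.4, 38.6 and 44.9 CPM in P1, 36.2 and 38.4 CPM in P2 and 36.98, 39.99 and 47.05 CPM in P3, against 38.2 CPM in the control. The control lay inside the range of the P2 and P3 libraries and below all P1 libraries. Its log2 fold changes were 0.13, -0.03 and 0.12, with 95% intervals of -0.13 to 0.39 in P1, -0.30 to 0.24 in P2 and -0.14 to 0.38 in P3. Falls of the size of those of nefm, prph and ebf3 lie outside these intervals. The gene sits on the unplaced scaffold Zv9_NA963, starting at its base 1, so the gene model may be cut at the scaffold edge.

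**Figure D2:**
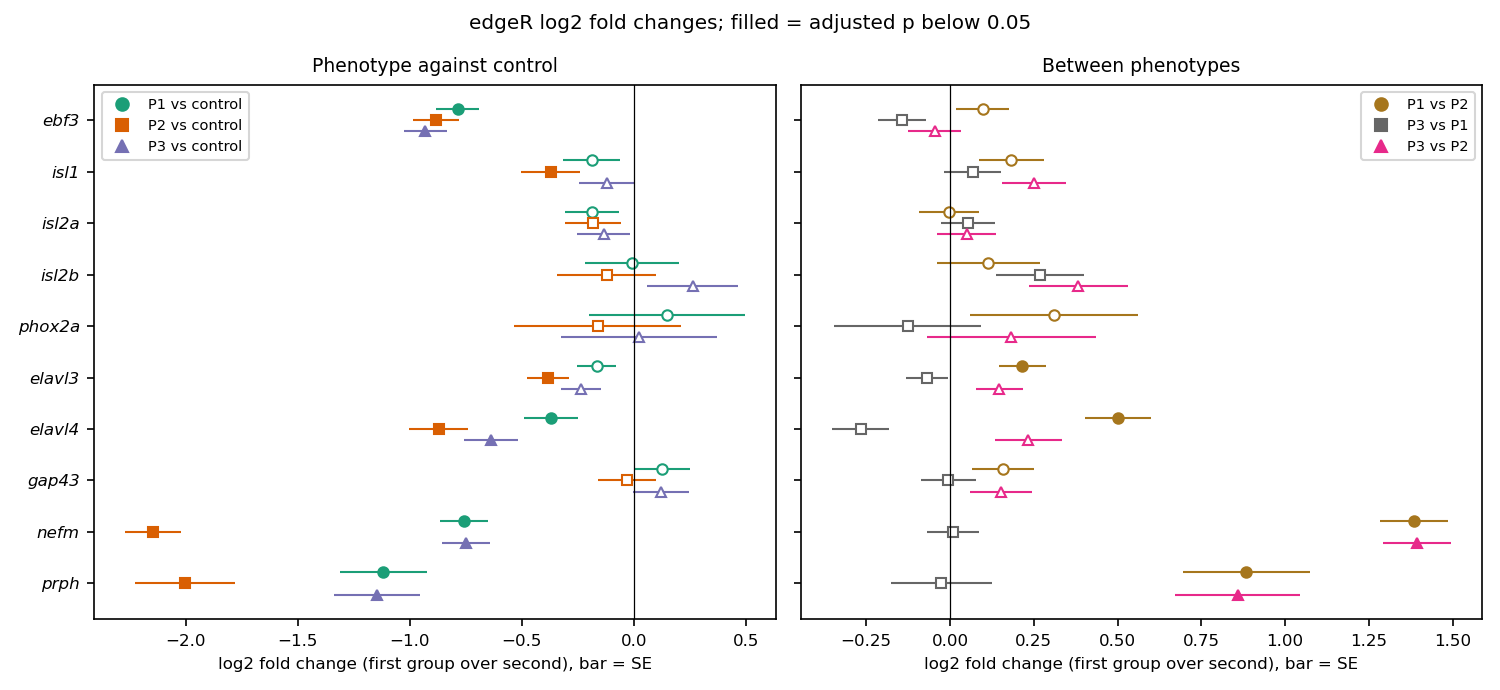
edgeR log2 fold changes (x axis, first group over second) of the 10 genes (rows), against the control on the left and between phenotypes on the right. Bars are 1 SE and filled symbols have an adjusted p below 0.05. The filled symbols on the left all lie below 0, those of nefm and prph in P2 at -2.14 and -2.00, and those on the right all lie above 0.

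Between phenotypes, P1 was higher than P2 in 4 of the 10 genes (nefm, prph, elavl3 and elavl4) and lower in 0, where 10.6% of all tested genes were called higher in P1 and 9.91% lower. P3 was higher than P2 in 2 genes (nefm and prph) and lower in 0, beside 11% and 10.5% of all tested genes. Between P3 and P1, 0 of the 10 genes passed with edgeR, beside 6.01% of all tested genes higher and 4.42% lower. At an unadjusted p under 0.05 edgeR had 1, elavl4, and DESeq2 had 0 adjusted and 1 unadjusted. A joint F test for any difference among P1, P2 and P3 passed for nefm, prph and elavl4, 3 of 10, beside 28.8% of all tested genes. The numbers of all genes called in these comparisons among P1, P2 and P3 were lower by more than 1.5 times with DESeq2, those that involve P2 also without either P2 library, and that of P3 against P1 without P1 replicate 0. Median log2 fold changes of the 10 genes were 0.20 for P1 over P2, -0.02 for P3 over P1 and 0.21 for P3 over P2.

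The level of nefm was higher than in P2 by 1.39 ± 0.10 on the log2 scale both in P1 and in P3 (edgeR adjusted p = 7.84e-08 and 4.96e-08). Between P3 and P1 it differed by 0.01 ± 0.08, with a 95% interval of -0.16 to 0.17. For prph the differences were 0.88 ± 0.19 for P1 over P2 and 0.86 ± 0.19 for P3 over P2 (adjusted p = 0.003 and 0.00328). Without P2 replicate 1 they were 0.77 and 0.74 and no longer passed (adjusted p = 0.0637 and 0.0706), with 1 library left in P2.

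The difference of elavl4 was 0.50 ± 0.10 for P1 over P2 (edgeR adjusted p = 0.00163) and -0.27 ± 0.09 for P3 over P1 (0.0568). The difference between P3 and P1 passed with no filter on low counts (0.0293) and without P1 replicate 2 (0.0206). For elavl3 the difference of 0.22 ± 0.07 between P1 and P2 (0.0382) was lost with DESeq2 (0.056) and without any single P1 or P2 library (0.0501 to 0.245). Without P3 replicate 0, elavl3 and gap43 also passed in P3 over P2, at 0.22 and 0.23 (adjusted p = 0.00653 and 0.0448), and the count of genes called was 4.

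Within a library, the counts of 2 genes can be set against each other without any scaling between libraries. For each 1000 counts of elavl3 there were 97.9, 114 and 98.1 counts of nefm in P1, 49.3 and 42.5 in P2 and 129, 98.3 and 103 in P3, against 156 in the control. The exact (Clopper-Pearson) 95% intervals, which cover counting error only, were 41.9 to 57.7 and 35.95 to 49.97 in P2 and 141 to 171 in the control. The ratio was lower in every exposed library than in the control, and of the exposed libraries the interval of P3 replicate 0 (116 to 143) was the only one to overlap that of the control.

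For prph the ratio was 18.8, 23.5 and 16.9 in P1, 13.2 and 11.6 in P2 and 24.6, 16.9 and 19.9 in P3, against 38.1 in the control. For ebf3 it was 97.6 to 102 in P1, 108 and 109 in P2 and 90.8 to 100 in P3, against 154 in the control. The gap43 ratio was 172 to 194 in P1, 178 and 195 in P2 and 169 to 204 in P3, against 146 in the control. The filament genes and ebf3 were therefore low relative to elavl3 in every exposed library and gap43 was high. The isl1 ratio, at 90.5 to 133 in the exposed libraries and 98.9 in the control, lay on both sides. In CPM, elavl3 itself was below the control in every exposed library, at means of 89.1%, 76.7% and 84.9% of it in P1, P2 and P3. Mean gap43 was at 109.2%, 97.8% and 108.3% of the control in CPM, with no call.

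**Figure D3:**
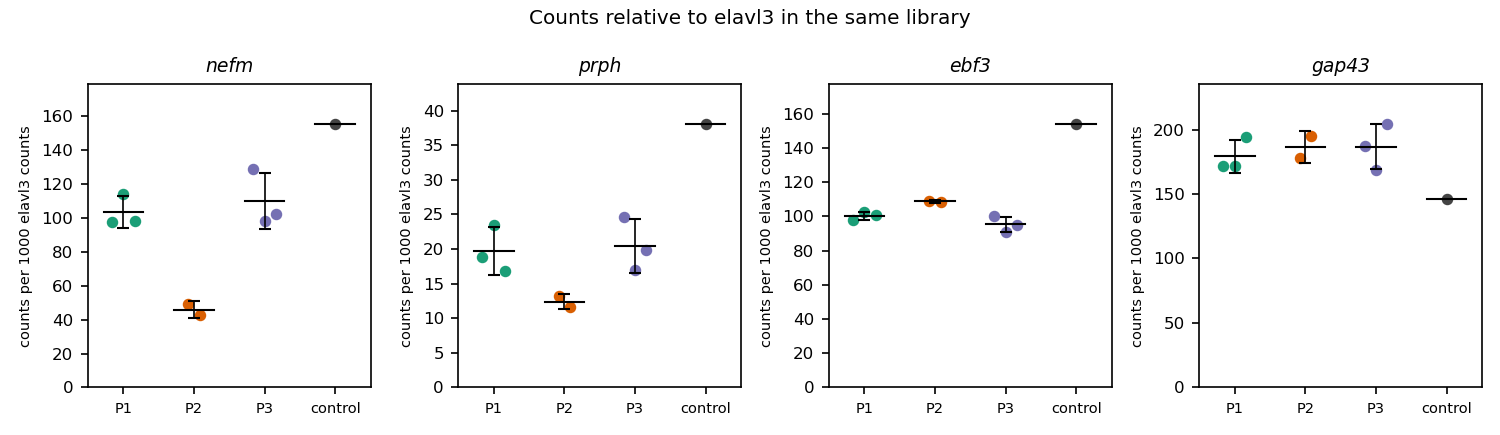
Counts of nefm, prph, ebf3 and gap43 for each 1000 counts of elavl3 in the same library (y axes from 0), with P1, P2 and P3 left of the control; lines are means and bars 1 SD. All exposed libraries lie below the control for nefm, prph and ebf3 and above it for gap43. In CPM, elavl3 itself is below the control in every exposed library.

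Levels can be compared between genes per length, in the deposited FPKM. In the control the order was elavl3 (76.5), gap43 (36.0), nefm (14.9), ebf3 (13.5), isl2a (12.8), isl1 (11.2), elavl4 (7.78), isl2b (4.49), prph (3.61) and phox2a (3.16). In P2 nefm was at 3.42 ± 0.46 FPKM (SD, n = 2) and stood at rank 8 of the 10, below isl2a (11.3 ± 0.3), isl1 (8.71 ± 0.25) and ebf3 (7.36 ± 0.26). In P1 and P3, at 8.84 ± 0.61 and 8.88 ± 0.46 FPKM (SD, n = 3 each), it stood at rank 5. In every phenotype elavl3, then gap43, led and prph came last, at 1.66 ± 0.26 FPKM in P1, 0.91 ± 0.11 in P2 and 1.63 ± 0.15 in P3. Neighbours whose libraries overlapped were isl2a with isl1, isl1 with nefm and isl2b with phox2a in P1. They were elavl4, isl2b, nefm and phox2a, each with the next, in P2, and isl2a with isl1 and isl2b with elavl4 in P3.

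Other intermediate filament genes of neurons and nerve fell in part. Of 8 tested beside nefm and prph, 3 fell in P1, 5 in P2 and 5 in P3, and 0 rose, with median log2 fold changes of -0.41, -0.71 and -0.51. The shares called lower were 37.5%, 62.5% and 62.5%, beside 9.19%, 15.6% and 12.2% of all tested genes. Of all tested genes, 7.08%, 14.2% and 10.4% were called higher. The internexin gene inaa had positive values, 0.10, 0.82 and 0.50, none of them called. In P1, the nefm paralog nefma and the progenitor filament gene nes were among the 3 that fell. The neurofilament genes nefl and nefla and the internexin gene inab were not called there. The paralog nefma on chromosome 21 had 13.5, 12.7 and 13.6 CPM in P1, 13.0 and 12.6 CPM in P2 and 7.73, 11 and 13.96 CPM in P3, against 21.6 CPM in the control. Its fall was of like size in P1 and P2, at -0.70 ± 0.19 and -0.76 ± 0.20, and P1 and P2 differed by 0.05 ± 0.16 (edgeR adjusted p = 0.0176, 0.00903 and 0.845). In P3 it was -0.97 ± 0.19 (0.00141), and without P3 replicate 0, the lowest library, it was -0.78 ± 0.14 (8.45e-05). The paralogs were not compared with each other by a test.

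The light neurofilament gene nefl lies 7864 bases from nefm on chromosome 8. It had 45, 33 and 28 counts in P1, 20 and 24 in P2 and 8, 30 and 43 in P3, against 50 in the control, whose library was the shallowest. P3 replicate 0 was the lowest library and both P2 libraries were below P1. It fell in P2 (-1.72 ± 0.45, edgeR adjusted p = 0.00828) and P3 (-1.43 ± 0.41, 0.0178) and was at -0.89 ± 0.39 in P1 (0.137). Without P3 replicate 0 its value in P3 was -1.04 ± 0.28 (0.00745).

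Of the other filament genes, inab, which codes for an internexin, was at -0.31 ± 0.12 in P1 without a call (edgeR adjusted p = 0.0852) and fell in P2 (-0.67 ± 0.13, 0.0008) and P3 (-0.37 ± 0.12, 0.035). The gene of nestin, nes, a filament of neural progenitors that muscle precursors also make, fell in all 3, with log2 fold changes of -0.51 ± 0.08 in P1, -0.99 ± 0.08 in P2 and -0.65 ± 0.08 in P3 (edgeR adjusted p = 0.000288, 1.44e-07 and 1.15e-05). Both were higher in P1 and in P3 than in P2, by 0.35 and 0.30 for inab and by 0.48 and 0.34 for nes (adjusted p = 0.0142, 0.0319, 6.19e-05 and 0.00114).

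**Figure D4:**
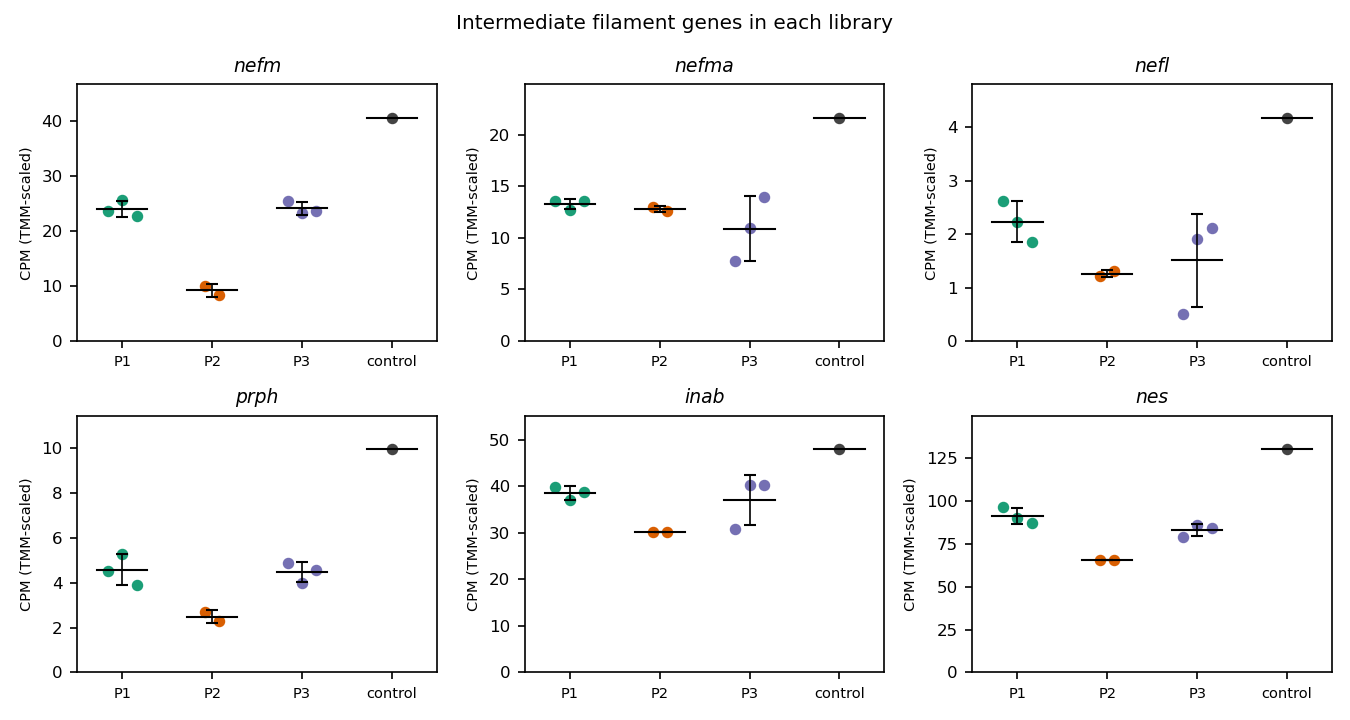
Levels of 6 intermediate filament genes in each library, in CPM scaled by TMM on axes from 0, with P1, P2 and P3 left of the control; lines are means and bars 1 SD. The control is the highest library in every panel, and P3 replicate 0, the leftmost P3 point, is the lowest library for nefma and nefl.

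Relatives of the transcription factors did not all follow. The gene ebf1a, of the same family as ebf3, fell in P1 (-0.61 ± 0.15, edgeR adjusted p = 0.0107) and P3 (-0.71 ± 0.15, 0.00255) and was at -0.34 ± 0.16 in P2 (0.113). Proneural and neuronal transcription factor genes beside the 10 numbered 27 tested, of which 3 fell in P1, 11 in P2 and 9 in P3, and 0 rose (medians -0.23, -0.35 and -0.28). The share called lower in P1, 11.1%, is near the 9.19% of all tested genes. It was 40.7% in P2 and 33.3% in P3, beside 15.6% and 12.2%. Of all tested genes, 7.08%, 14.2% and 10.4% were called higher in P1, P2 and P3. Among the 27 genes scrt1a, a zinc finger repressor of maturing neurons, fell in P1, P2 and P3 (-0.77 ± 0.20, -1.26 ± 0.22 and -0.76 ± 0.20). The helix-loop-helix gene neurod6b had 6.45, 5.49 and 5.96 CPM in P1, 2.5 and 2.77 CPM in P2 and 3.62, 3.88 and 5.26 CPM in P3, against 6.51 CPM in the control. It fell in P2 (-1.30 ± 0.26, edgeR adjusted p = 0.000997) and was -0.12 in P1 and -0.59 in P3 without a call.

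Of 31 islet, LIM and motor neuron genes, 4 fell in P1, 10 in P2 and 7 in P3, and 1, 2 and 1 rose (medians -0.15, -0.12 and -0.17). Lower were 12.9%, 32.3% and 22.6%, beside 9.19%, 15.6% and 12.2% of all tested genes. Higher were 3.23%, 6.45% and 3.23% in P1, P2 and P3, beside 7.08%, 14.2% and 10.4%. The axonal adhesion gene cntn2 fell in each (-0.47 ± 0.15, -0.82 ± 0.16 and -0.65 ± 0.15). The gene nkx6.2, a homeodomain factor of ventral neural progenitors, rose, to 44.4 to 46.9 CPM in P1, 62.9 and 65.7 CPM in P2 and 43.7 to 48.0 CPM in P3, against 35.7 CPM in the control. Both P2 libraries were above all others, at a log2 fold change of 0.85 ± 0.10 (edgeR adjusted p = 4.21e-06).

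Of 27 phox2, cranial and catecholamine neuron genes, 3, 8 and 5 fell in P1, P2 and P3 and 0 rose (medians -0.23, -0.35 and -0.20). In P1 the share that fell is again 11.1%, near the 9.19% of all tested genes. It was 29.6% in P2 and 18.5% in P3, beside 15.6% and 12.2%. Of all tested genes, 7.08%, 14.2% and 10.4% were called higher in P1, P2 and P3. The hypothalamic homeobox gene otpa was at 15.5, 14.3 and 18.2 CPM in P1, 10.8 and 9.83 CPM in P2 and 12.2, 14.2 and 15.7 CPM in P3, against 28.2 CPM in the control. Its changes of -0.82 ± 0.14, -1.45 ± 0.16 and -1.0007 ± 0.14 passed in each (edgeR adjusted p = 0.000759, 2.26e-06 and 5.87e-05). The receptor tyrosine kinase gene ret of autonomic and enteric neurons fell in each as well (-0.47, -0.67 and -0.55).

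Genes of ELAV and other neuronal RNA-binding proteins beside elavl3 and elavl4 numbered 20 tested. Among them 6 fell in P1, 5 in P2 and 7 in P3, and 1, 0 and 0 rose. The shares called lower were 30%, 25% and 35%, beside 9.19%, 15.6% and 12.2% of all tested genes. Those called higher were 5%, 0% and 0%, beside 7.08%, 14.2% and 10.4%. The splicing factor gene rbfox1 had 11.4, 11.99 and 10.3 CPM in P1, 7.68 and 9.45 CPM in P2 and 7.48, 9.60 and 10.1 CPM in P3, against 22.1 CPM in the control (-0.98 ± 0.15, -1.36 ± 0.17 and -1.28 ± 0.16). The one gene that rose was rbfox1l in P1, by 0.44 ± 0.11 (edgeR adjusted p = 0.0118).

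Growth cone and axon genes beside gap43 numbered 46 tested (medians -0.28, -0.35 and -0.28 in P1, P2 and P3). Among them 11 fell in P1, 21 in P2 and 19 in P3, while 1, 2 and 1 rose. The shares called lower were 23.9%, 45.7% and 41.3%, beside 9.19%, 15.6% and 12.2% of all tested genes. Those called higher were 2.17%, 4.35% and 2.17%, beside 7.08%, 14.2% and 10.4%. The membrane phosphoprotein gene basp1, whose product resembles that of gap43 in growth cones, fell in all 3, at -0.42 ± 0.10 in P1, -0.82 ± 0.11 in P2 and -0.62 ± 0.10 in P3 (edgeR adjusted p = 0.00986, 2.71e-05 and 0.000311). The cell adhesion gene ncam1a fell to like degrees (-0.58, -0.57 and -0.62). Against the list, uchl1, which codes for a ubiquitin hydrolase abundant in neurons, rose to 18.0, 18.0 and 18.4 CPM in P1, 27.1 and 26.2 CPM in P2 and 18.8, 16.5 and 19.1 CPM in P3, against 10.7 CPM in the control. All exposed libraries were above the control and those of P2 above the rest, at log2 fold changes of 0.76 ± 0.13, 1.32 ± 0.13 and 0.77 ± 0.13 (edgeR adjusted p = 0.000896, 1.26e-06 and 0.000443). The stathmin paralogs moved apart in P2, where stmn1a was at 0.52 ± 0.08 and stmn1b at -0.63 ± 0.10 (adjusted p = 0.000122 and 0.000117).

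Synapse and transmitter genes had low medians near those of the filament list, at -0.41 in P1, -0.61 in P2 and -0.51 in P3. Of 44 tested, 15, 28 and 21 fell and 1 rose in each. The shares called lower were 34.1%, 63.6% and 47.7%, beside 9.19%, 15.6% and 12.2% of all tested genes. The share called higher was 2.27% in each, beside 7.08%, 14.2% and 10.4%. The synaptic vesicle fusion gene snap25a was at 48.7, 47.6 and 48.0 CPM in P1, 41.4 and 40.2 CPM in P2 and 40.9, 47.3 and 49.3 CPM in P3, against 64.5 CPM in the control. Its log2 fold changes were -0.42 ± 0.09, -0.66 ± 0.10 and -0.49 ± 0.09 (edgeR adjusted p = 0.00528, 9.85e-05 and 0.00109). The vesicle gene vamp1 fell in each (-0.79 ± 0.18, -1.40 ± 0.20 and -0.93 ± 0.18), as did the acetylcholinesterase gene ache, also active in muscle (-0.55 ± 0.10, -0.85 ± 0.10 and -0.83 ± 0.10). The genes that rose were the presynaptic adhesion gene nrxn1b in P1 and P3, by 1.40 ± 0.34 and 1.02 ± 0.36, against a level of 1.085 CPM in the control, and the glycine transporter gene slc6a9 in P2, by 0.42 ± 0.11. Without P3 replicate 0, 0 genes of the list rose in P3 and 19 fell.

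Neural progenitor and Notch genes did not share the low medians. Of 44 tested, 3 rose and 3 fell in P1, 11 and 7 in P2 and 7 and 5 in P3, with medians of 0.03, 0.13 and 0.04. The shares that fell, 6.82%, 15.9% and 11.4%, are near the 9.19%, 15.6% and 12.2% of all tested genes. The shares that rose, 6.82%, 25% and 15.9%, stand beside 7.08%, 14.2% and 10.4%. The Notch-responsive repressor gene hey1 had 57.9, 59.96 and 58.4 CPM in P1, 75.5 and 69.2 CPM in P2 and 77.6, 69.1 and 66.9 CPM in P3, against 31.6 CPM in the control. It rose by 0.90 ± 0.11, 1.196 ± 0.11 and 1.17 ± 0.11 (edgeR adjusted p = 1.77e-05, 3.37e-07 and 3.19e-07). The related repressor gene her9 rose in P2 and P3, by 0.51 and 0.39. From the same list, notch1b fell in P1 and P3 (-0.36 and -0.50), and dlb and jag1b fell in P2 (-0.33 and -0.32). The radial glia gene fabp7a fell in P2 and P3, at -0.84 ± 0.12 and -0.81 ± 0.11, and was at -0.25 in P1 without a call (adjusted p = 5.89e-05, 5.22e-05 and 0.149).

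Of 52 brain region genes, 1 rose and 2 fell in P1, 8 and 8 in P2 and 7 and 6 in P3, with medians of 0.03, 0.03 and -0.03, shares near those of all tested genes in P2 and P3 and below them in P1. Of 20 glia and Schwann cell genes 2 rose and 5 fell in P1, 4 and 9 in P2 and 4 and 8 in P3. Lower were 25%, 45% and 40%, beside 9.19%, 15.6% and 12.2% of all tested genes. Higher were 10%, 20% and 20%, beside 7.08%, 14.2% and 10.4%. The hindbrain and Schwann cell factor gene egr2b rose by 0.88 ± 0.25, 1.59 ± 0.25 and 1.24 ± 0.24, and the glial glutamate transporter gene slc1a3b fell (-0.87 ± 0.25, -1.82 ± 0.29 and -1.67 ± 0.27).

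**Figure D5:**
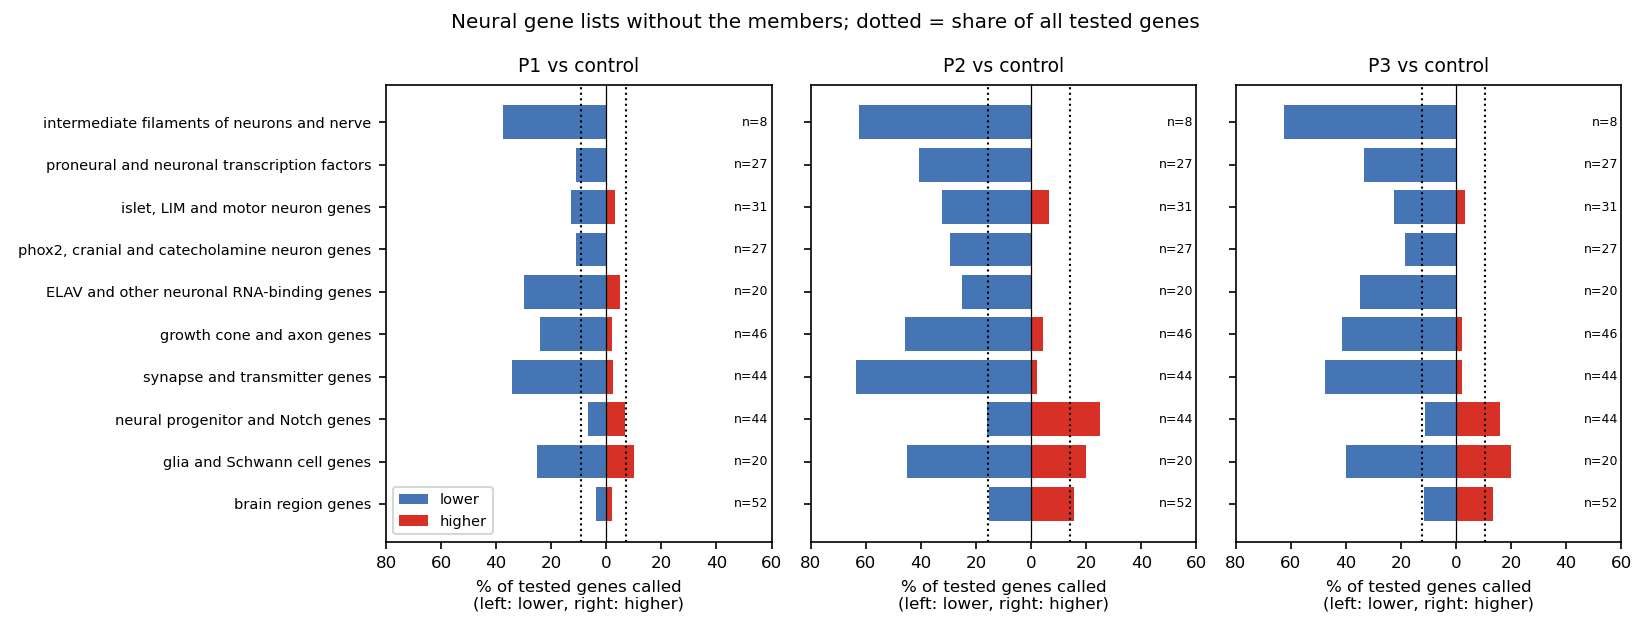
Share of the tested genes of each neural list, without the 10 genes described, that were called lower (left of 0) or higher (right of 0) in P1, P2 and P3 against the control. Dotted lines give the share of all tested genes, such as 15.6% lower and 14.2% higher in P2; the bars for lower calls of the filament and synapse lists reach beyond them in each panel, and those of the brain region genes do not.

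Markers of other tissues moved with the phenotypes too. Summed skeletal muscle markers were 13900 to 14930 CPM in P1, 9836 and 10130 CPM in P2 and 9885 to 13140 CPM in P3, against 20320 CPM in the control, with 7 of 7 called lower in each. Epidermis markers summed to 15690 to 16590, 15140 to 15580 and 16090 to 17020 CPM, against 22360 CPM in the control, with 5, 4 and 4 of 7 lower and 0, 1 and 2 higher. Blood markers summed to 2734 to 3048, 2554 to 2626 and 2073 to 2788 CPM, against 3653 CPM, with 3, 5 and 6 of 8 lower and 0 higher. Their part in the changes of the neuronal genes was not tested. Over all tested genes, 9.19%, 15.6% and 12.2% were called lower in P1, P2 and P3, and 7.08%, 14.2% and 10.4% higher.

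Among neural cells, 12 progenitor markers summed to 1822 to 1960 CPM in P1, 1892 and 1913 CPM in P2 and 1821 to 1874 CPM in P3, against 2003 CPM in the control, with 1, 2 and 2 lower and 1, 1 and 2 higher. The glia markers, 7 genes of which 6 were tested, summed to 602.3 to 608.9, 527.8 to 532.4 and 563.4 to 619.2 CPM, against 640.4 CPM, with 2, 3 and 3 lower and 1 higher in each. Beside these counts, 9.19%, 15.6% and 12.2% of all tested genes were called lower in P1, P2 and P3, and 7.08%, 14.2% and 10.4% higher. The myelin gene mbpa was at 0 counts in all 9 libraries.

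Across the 9 libraries, the standardised log2 CPM of the 10 genes did not move as one. The profile of nefm correlated with the mean of the other 9 at r = 0.86, that of prph at 0.83, elavl3 at 0.80, elavl4 at 0.77, isl1 at 0.72, isl2a at 0.59 and ebf3 at 0.57. The r of phox2a was 0.32, of gap43 0.25 and of isl2b 0.14. These correlations are descriptions, since the libraries fall into groups and share 1 control.

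Among 11266 other genes with an assigned symbol and a mean of at least 5 CPM, the 6 whose profile was most like the mean of the 10 were sall3b (r = 0.987), adcyap1b (0.977), fgf13b (0.974), calb2b (0.967), fam123a (0.967) and ambpl (0.965). The level of sall3b, a zinc finger gene, was 17.5, 13.3 and 15.8 CPM in P1, 10.3 and 10.5 CPM in P2 and 13.3, 15.3 and 16.03 CPM in P3, against 21.96 CPM in the control. A gene of the intracellular fibroblast growth factor homologs of neurons, fgf13b, had 8.95, 6.98 and 8.74 CPM in P1, 5.73 and 4.78 CPM in P2 and 6.98, 7.76 and 8.01 CPM in P3, against 12.4 CPM in the control. In both the P2 libraries were lowest and the control highest, an order that follows from choosing them by likeness to the mean of the 10.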

How the data were processed

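Poly(A) RNA of whole embryos was measured in 9 libraries, made with the TruSeq v2 kit, as the labels state. Alignment was to Zv9 with Novoalign, per the submitters' processing notes. Neither the tool that counted the reads nor its use of strand is stated there. The 3 deposited tables hold counts per gene and library and FPKM, per the file headers. The deposited FPKM equal the counts divided by gene length and library total, to a relative difference of 7.8e-08. For each gene the authors deposited a score, a scaled negative log10 of their adjusted p, and a log2 ratio after variance correction, per the file headers. Left unused were 11 columns of variance-corrected counts and 9 on splicing. Coordinates are 1-based on Zv9.

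The control counts were equal in the 3 tables, which were joined. edgeR 4.0.16 (R 4.3.3, limma 3.58.1) kept genes by filterByExpr (minimum count 10, minimum total 15), scaled by TMM (factors 0.978 to 1.014) and fitted 1 quasi-likelihood model of group to all 9 libraries (5 residual degrees of freedom, common biological coefficient of variation 0.0565). Two-sided F tests were adjusted by Benjamini-Hochberg over 19835 genes, with a threshold of 0.05. SE is the log2 fold change divided by the square root of F. Log CPM used a prior count of 2. The floor of 3 counts per library ranged from 0.1442 CPM in the deepest to 0.2498 CPM in the control, for counting error only. The procedure was run on simulated data in which every library, the control included, had the same spread. That run could not test whether the real control shares the spread of the exposed libraries.

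Lists held 458 entries, 48 of them unmatched, and some genes stand in more than 1 list. The members and lists were chosen with earlier results of these data known. Named genes are all 10 members, from each list up to 4 with the smallest p in P2 and 1 each in P1 and P3 against the control, list genes called against most of their list, and the 6 most like the members. Of these the text gives a part. Named outside the rule, after their values were seen, are elavl1, nefla, phox2bb, ebf3b, inaa and mbpa. The fits were repeated with DESeq2 1.42.0, with RLE or library-total scaling, with other filters on low counts, within the compared groups, with a replicate block, and leaving out each exposed library. No sequence is shown.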

Additional observations from a re-analysis of the deposited data

Results flagged for a closer look

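For 3 of the 10 genes the change against the control differed among the phenotypes by a test of the difference itself. That test, a joint F test, passed for 28.8% of all tested genes, near the share of the 10. The level of nefm was higher in P3 than in P2 by 1.39 on the log2 scale, and its joint F test of P1, P2 and P3 with edgeR gave adjusted p = 5.29e-08. In prph, P1 was higher than P2 by 0.88 (joint adjusted p = 0.00332). In elavl4, P1 was higher than P2 by 0.5 (joint adjusted p = 0.00292). No group held 4 or more libraries, so single libraries were not screened for outliers.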

How the results depend on the processing

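Of the members' log2 fold changes under the alternatives, 610 kept their direction and their side of the threshold, 19 lost a call, 10 gained one and 21 changed sign, all 21 of them uncalled. No called value of the 10 genes changed sign under any alternative. Numbers of the 10 genes called moved by more than 1.5 times in P3 against P1 (1 with no filter, 0 to 1 with a library left out), P3 against P2 (4 with no filter, 2 to 4 with a library left out) and P1 against P2 (2 to 4 with a library left out). With a replicate block 3, 5 and 4 of the 10 genes were called in P1, P2 and P3 against the control. Between phenotypes 3, 0 and 2 were called in P1 against P2, P3 against P1 and P3 against P2. Over all genes the block gave 2705, 5239 and 3919 calls against the control and 3089 in P1 against P2. Without the block these were 3227, 5916, 4482 and 4072. Libraries with the same number did not deviate together (r of -0.107 to 0.018). With only 2 or 3 libraries in a group, this check cannot tell whether the numbers pair libraries. The calls not made under the block were elavl4 in P1, isl1 in P2 and elavl3 in P1 over P2 (adjusted p = 0.055, 0.0652 and 0.104). Under that block gap43 in P2 changed sign to 0.0447. With a library left out, uncalled log2 fold changes that changed sign ranged from -0.0333 to 0.0034 (isl2b) and -0.20 to 0.32 (phox2a) in P1, -0.37 to 0.06 (isl2b) in P2 and -0.0613 to 0.0848 (phox2a) in P3. In P1 over P2 they ranged from -0.049 to 0.063 (isl2a), -0.0798 to 0.35 (isl2b) and -0.0286 to 0.49 (phox2a). In P3 over P1 they ranged from -0.0305 to 0.0601 (nefm), -0.12 to 0.0851 (prph), -0.12 to 0.0065 (elavl3), -0.11 to 0.0698 (gap43), -0.009 to 0.13 (isl1), -0.0137 to 0.098 (isl2a) and -0.31 to 0.21 (phox2a). Leaving out P3 replicate 0 for relatives and lists was chosen after seeing the data: nefla in P3 over P2 then read 0.047 in place of -0.38, both uncalled, and 15 in place of 19 growth cone genes and 19 in place of 21 synapse genes fell in P3. Over all genes, edgeR called 3227, 5916 and 4482 in P1, P2 and P3 against the control, where DESeq2 called 1917, 3820 and 2736. In P1 against P2, P3 against P1, P3 against P2 and the joint test edgeR called 4072, 2069, 4270 and 5708, and DESeq2 2471, 1263, 2656 and 3602. Without P2 replicate 0 or 1 edgeR called 1725 or 1848 in P1 against P2, 1885 or 1903 in P3 against P2 and 3083 or 3145 in the joint test, and without P1 replicate 0 it called 1301 in P3 against P1. The causes were not tested. The deposited FPKM are the counts scaled by library totals, so levels from them were not run as a separate alternative. Among the 10 genes phox2a had the fewest counts, 31 to 70 per library.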

Other observations

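The authors' deposited tables hold a score of the adjusted p, and the authors' adjusted p given here were converted from that score. For nefm the authors' deposited table for P2 gives 8.87e-37, and the authors' deposited tables for P1 and P3 give 1.34e-06 and 2.59e-05. In the authors' deposited tables isl1 in P2 and elavl4 in P1 have adjusted p of 0.0568 and 0.087, both above 0.05, where edgeR called them at 0.0434 and 0.0444. The score of elavl3 in the authors' deposited table for P2 converts to 3.71e-08. The variance-corrected log2 ratios in the authors' deposited tables were -0.42, -0.61 and -0.51 for nefm in P1, P2 and P3. For prph the authors' deposited tables list -0.34, -0.30 and -0.46, and for elavl4 -0.20, -0.26 and -0.40. There P3 and not P2 is farthest from 0 for both genes, unlike the order of the edgeR fold changes. These ratios are variance-corrected and come from 3 separate tables, so their sizes are not on the scale of the edgeR values. In the authors' deposited tables the adjusted p was smallest in P2 for both, at 6.4e-09 for prph and 1.33e-06 for elavl4.

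Of the phox2 relatives, phox2bb had 39, 18 and 55 counts in P3, 20, 13 and 18 in P1 and 15 in the control. Its log2 fold change for P3 over P1 was 0.97 ± 0.30 (edgeR adjusted p = 0.0466). Its joint F test of P1, P2 and P3 did not pass (edgeR adjusted p = 0.0518), nor did P3 against the control (0.262) or against P2 (0.614). The second ebf3 gene, ebf3b, had 55, 56 and 58 counts in P3, against 22 and 24 in P2, a log2 fold change of 1.30 ± 0.23 (edgeR adjusted p = 0.000637). In P1 it had 39, 33 and 45 counts, higher than P2 by 0.91 ± 0.24 (0.013). The control, the shallowest library, had 25 counts. Against the control ebf3b was at 0.25, -0.66 and 0.64 in P1, P2 and P3, none called (edgeR adjusted p = 0.634, 0.183 and 0.138). Between P3 and P2, ebf3 itself did not differ beyond its error (-0.05 ± 0.08). The neurofilament gene nefla had 1 to 10 counts in the exposed libraries, against 12 in the control. The lowest, 1 count, was in P3 replicate 0. It was not called against the control in P1, P2 or P3 (edgeR adjusted p = 0.242, 0.142 and 0.0672).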
